A study of Mus musculus with 8 samples.

Results

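A set of 10 endothelial genes were followed in the renal cortex of aged and young mice: Esm1, Kdr, Flt1, Pecam1, Emcn, Cdh5, Tek, Plvap, Ehd3 and Vwf. They were found by symbol, and all 10 were among the 22609 genes in the count tables and among the 13944 genes that passed the filter on low counts. The aged group was 4 male C57BL6 mice aged 30 months by their labels, the young group was 4 male C57BL6 mice aged 5 months, and neither group was treated. The study's RNA-Seq methods give the aged mice a higher mean age than the labels do. RNA came from whole kidney cortex, with 1 library per mouse, so all cells of the cortex contributed and endothelium is a minor part of it. Fewer endothelial cells and less of an RNA per endothelial cell cannot be told apart in such samples. Esm1 was singled out because it was among the genes lower in aged mice with the smallest p in an earlier analysis of these counts, and the other 9 were selected on being known endothelial genes. Since Esm1 was thus chosen by its age difference, that difference is given for all 10 genes as a description, with no test.

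Renal endothelium is not a single tissue. The glomerular capillaries are fenestrated and filter plasma, the peritubular capillaries take back what the tubules reabsorb, and arteries and veins are also present. VEGF-A made by podocytes and tubules acts on endothelial receptors encoded by Kdr and Flt1, and angiopoietins act on the receptor encoded by Tek. Esm1 encodes endocan, a proteoglycan that endothelial cells secrete with a dermatan sulfate chain attached, and VEGF-A is known to induce it in endothelial cells.

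The letters GGAA are the core bound by ETS transcription factors, a family that endothelial genes depend on. Promoter sequences of RefSeq (build GRCm38.p6), from 250 bases before to 50 bases after the start of the gene, were matched for 6 of the 10 genes: Esm1, Kdr, Flt1, Emcn, Tek and Ehd3. Those of Esm1 (chr13:113209409-113209708, plus strand), Ehd3 (chr17:73804591-73804890, plus strand) and Kdr (chr5:75978406-75978705, minus strand) are shown, since Esm1 and Ehd3 were lower in every aged mouse than in any young mouse and Kdr, the main VEGF receptor, was not. Each is written from 5′ to 3′ on the strand of the gene, with GGAA or its reverse complement TTCC in capitals.
Esm1: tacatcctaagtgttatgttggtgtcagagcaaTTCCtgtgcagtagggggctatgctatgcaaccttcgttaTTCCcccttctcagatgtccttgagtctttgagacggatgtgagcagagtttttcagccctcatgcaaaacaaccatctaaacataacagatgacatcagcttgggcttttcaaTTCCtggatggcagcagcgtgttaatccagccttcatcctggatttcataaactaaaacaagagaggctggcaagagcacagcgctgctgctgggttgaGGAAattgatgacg
Ehd3: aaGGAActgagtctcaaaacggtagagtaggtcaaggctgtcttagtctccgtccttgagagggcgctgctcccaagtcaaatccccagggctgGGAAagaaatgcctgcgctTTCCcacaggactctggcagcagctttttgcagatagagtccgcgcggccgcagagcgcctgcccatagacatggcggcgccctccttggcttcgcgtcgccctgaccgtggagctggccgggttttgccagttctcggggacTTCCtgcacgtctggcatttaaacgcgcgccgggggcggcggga
Kdr: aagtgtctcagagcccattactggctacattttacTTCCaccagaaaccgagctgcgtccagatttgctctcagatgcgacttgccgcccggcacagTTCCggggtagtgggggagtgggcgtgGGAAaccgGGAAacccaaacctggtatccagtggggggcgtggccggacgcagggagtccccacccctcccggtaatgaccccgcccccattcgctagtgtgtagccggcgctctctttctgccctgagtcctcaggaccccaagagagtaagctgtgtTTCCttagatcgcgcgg

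These letters were found 4 times in the Esm1 sequence, 4 times in that of Ehd3 and 5 times in that of Kdr. They were also present in 96.0% of 32851 RefSeq promoter sequences, with a median of 3 matches per promoter, so their presence sets none of the 6 genes apart. The longer form GGAAG, which overlaps GGAA, was absent from the Esm1 sequence and from 1 other of the 6, against a presence in 71.4% of all promoters. The SOX letters AACAAT were found in 2 of the 6 sequences (10.7% of all promoters), the GATA letters AGATAA in 1 of 6 (11.2%) and the TATA letters TATAAA in 1 of 6 (13.6%), none of them in Esm1, with both strands searched each time. The Esm1 sequence had a GC content of 46.3% and 5 CpG sites, against 60.7% and 19 in Kdr and a median over all promoters of 52.7% and 7. The matches describe these letters and do not show binding.

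Libraries held 14820804 to 19821429 read pairs on genes, and levels are given as CPM after TMM scaling, that is, counts relative to the scaled size of the library. A floor of 3 counts corresponds to 0.151 to 0.202 CPM, which covers counting error only, and every member lay above it in every mouse. Of the 13944 genes, 287 changed with age (163 higher, 124 lower), where changed means a fold change above 1.5 and an adjusted p below 0.05 (edgeR, quasi-likelihood test, adjusted by Benjamini-Hochberg). An unadjusted p below 0.05 from edgeR was found in 3557 of the 13944 genes. By the same thresholds DESeq2 called 873 of them and limma-voom 483. Counts of such genes in the lists below are to be read beside these. Aged mouse 1 stood apart from the other aged mice. It lay at -71.5 on the first principal component, which held 48.1% of the variance, against -16.3 to 2.26 in the other aged mice and 21.6 to 26.2 in the young mice. Lrp2, the endocytic receptor megalin and a proximal tubule gene, was at 3860 to 11200 CPM. These levels show proximal tubule RNA in every library, and they cannot tell whether other parts of the kidney were included.

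Esm1 was lower in every aged mouse than in any young mouse, and its values hardly varied within either age. The gene occupies positions 113999867 to 114008306 of chromosome 13 in mm9 (plus strand), with 3 exons and 2097 nt in the longest coding transcript. Its level was 27.3, 28.4, 31.0 and 29.6 CPM in aged mice 1 to 4 and 48.5, 54.7, 50.0 and 49.3 CPM in young mice 1 to 4. The lowest young mouse thus lay well above the highest aged mouse. Group means were 29.1 ± 1.59 CPM in aged and 50.6 ± 2.78 CPM in young mice (SD, n = 4 each), and the log2 fold change was -0.80 with a standard error (SE) of 0.08. The raw counts behind these values were 436 to 580 in the aged and 735 to 1034 in the young libraries. Without aged mouse 1 the log2 fold change was -0.77 with a standard error of 0.07.

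Of the 10 genes, Esm1 alone passed both thresholds of the test, in a comparison in which 2.06% of all genes tested did so and 0.889% were called lower. Nothing is read from this count, because the same contrast put Esm1 forward. Esm1 and Ehd3 were the members whose age groups did not overlap, both with aged below young. Over all genes tested 18.9% had groups that did not overlap, in either direction. The median log2 fold change of the 10 genes was 0.05, beside 0.03 over all genes tested, and it was -0.10 without aged mouse 1, beside 0.02 over all genes.

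**Figure D1:**
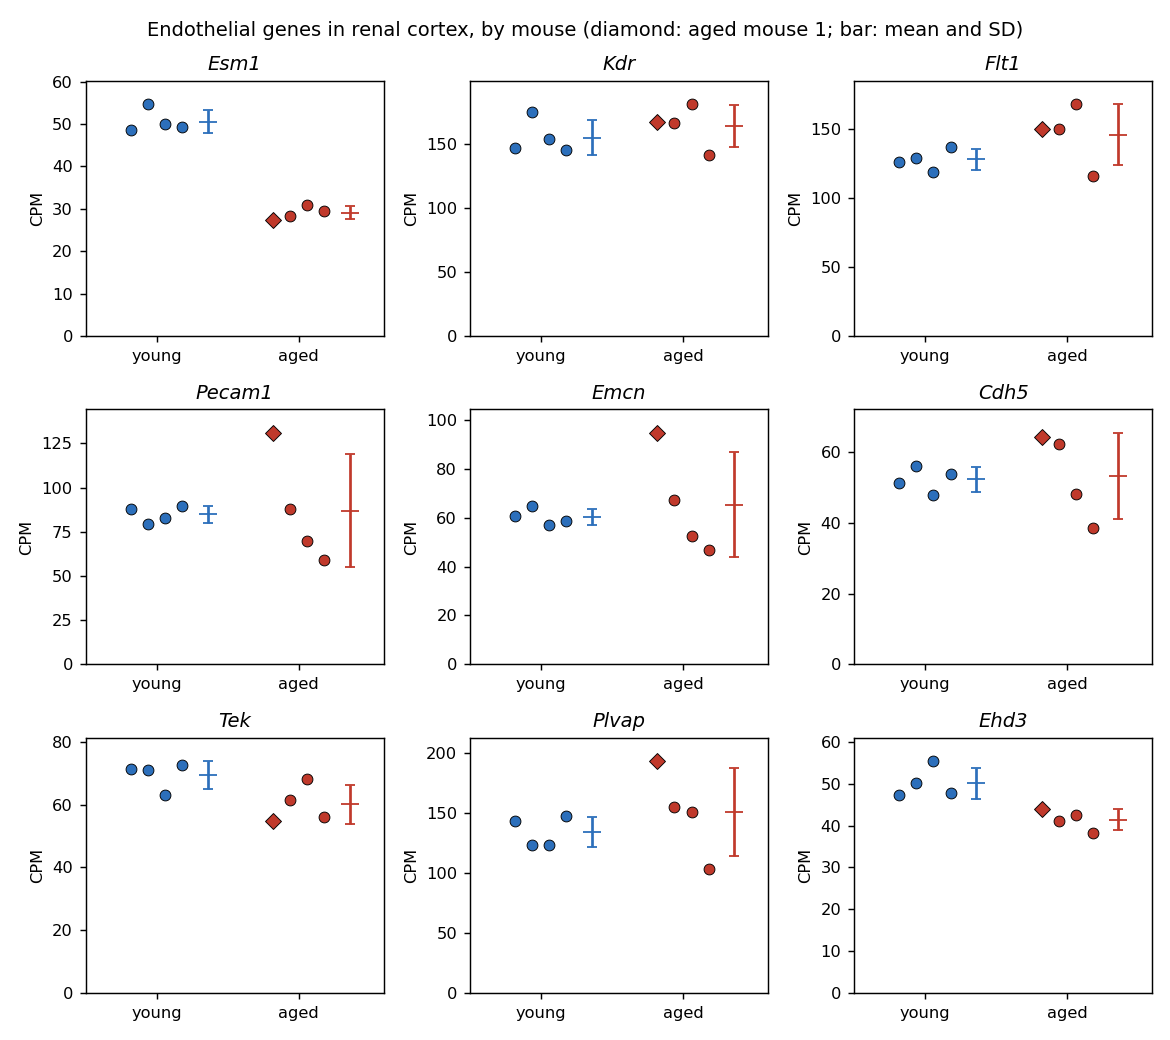
Level of 9 of the endothelial genes in CPM (vertical axes, from 0) in the 4 young (blue) and 4 aged (red) mice, 1 point per mouse in the order of mouse number, with the group mean and SD beside the points and aged mouse 1 as a diamond. The groups are apart in Esm1 and Ehd3, and Pecam1, Emcn and Cdh5 spread widely among the aged mice.

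Because the amount of endothelium sampled can differ between mice, Esm1 was also set against the other endothelial genes of the same library. The geometric mean of the other 8 genes, with Vwf left out, was 99.0, 88.0, 83.4 and 66.5 CPM in aged mice 1 to 4 and between 80.7 and 85.5 CPM in the young mice. The aged mice lay on both sides of the young ones in this reference. In aged mice 1 to 4 Esm1 was 27.6%, 32.2%, 37.2% and 44.5% of it, while young mice 1 to 4 had 57.9%, 63.9%, 61.9% and 57.6%. The groups did not overlap here either, which is a description since this contrast chose Esm1. Means were 35.4% ± 7.22 in aged and 60.3% ± 3.12 in young mice (SD, n = 4 each). The spread in the aged group came with the reference, since Esm1 itself varied little among these mice.

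The choice of reference moved these values, and every aged mouse stayed below every young mouse with each one tried. Esm1 was chosen by this same contrast and each reference overlapped between the ages, so this order is a description and no test. Against all 9 other genes, Vwf included, Esm1 was 45.6% ± 11.5 in aged and 86.6% ± 7.03 in young mice (SD, n = 4 each). Against the geometric mean of 22 other endothelial genes described below it was 120% ± 27.3 in aged and 219% ± 19.7 in young mice (SD, n = 4 each). Against Kdr alone it was 17.9% ± 2.08 in aged and 32.6% ± 1.16 in young mice (SD, n = 4 each). The gap between the ages was narrower against Cdh5, where the aged mice reached 76.8% and the young mice began at 91.6%, and against Pecam1, where these values were 50.0% and 55.0%. The ratio of the young to the aged mean ran from 1.62 with Pecam1 to 1.90 with all 9 genes.

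**Figure D2:**
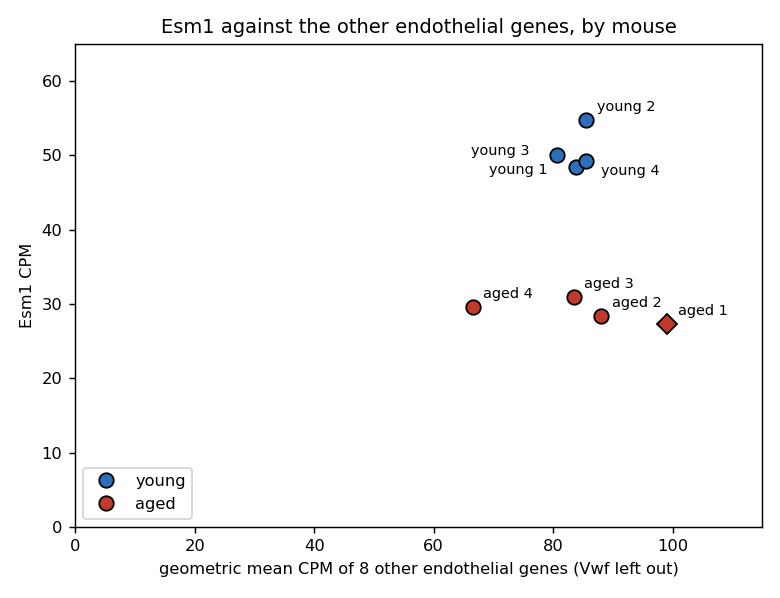
Esm1 in CPM (vertical axis) against the geometric mean in CPM of the other 8 endothelial genes without Vwf (horizontal axis), 1 point per mouse, young in blue and aged in red, aged mouse 1 as a diamond. The aged mice run from 66.5 to 99.0 CPM on the horizontal axis while Esm1 stays between 27.3 and 31.0 CPM.

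Levels of different genes were compared per length, as CPM divided by the length in kb of the longest coding transcript (FPKM). In young mice Plvap was highest at 66.6 FPKM. Kdr (26.2), Pecam1 (24.7), Esm1 (24.1) and Emcn (23.3) FPKM followed, and in this order the ranges of neighbours overlapped over the 4 mice. Flt1 (18.5 FPKM) lay below them in every young mouse. Tek (14.9), Ehd3 (13.7) and Cdh5 (13.1) FPKM came next with overlapping ranges, and Vwf was far below at 0.388 FPKM. In aged mice Plvap (74.7 FPKM) and Vwf (1.59 FPKM) kept the ends of the order. Esm1 (13.9 FPKM) then lay below Flt1 (21.2 FPKM) in every aged mouse and overlapped Cdh5 (13.4 FPKM), so that it stood at rank 6 by mean, against rank 4 in young mice. The Esm1 range per length thus overlapped that of Kdr in young cortex and lay below it in aged cortex.

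Kdr and Flt1, the VEGF receptors, did not separate the ages. Kdr encodes VEGFR2, which carries most VEGF-A signalling in endothelium, and is found on chromosome 5 of mm9 (76328852 to 76374483, minus strand). It was at 167, 166, 181 and 141 CPM in aged mice 1 to 4 and at 147, 175, 154 and 145 CPM in young mice 1 to 4. The ranges overlapped, and the log2 fold change was 0.07 with a standard error of 0.10. Flt1 encodes VEGFR1, which binds VEGF-A tightly and in its soluble form acts as a decoy, and lies on the same chromosome (148373180 to 148537587). It was at 150, 150, 168 and 116 CPM in aged mice 1 to 4 and at 126, 129, 119 and 137 CPM in young mice 1 to 4. Aged mice 1 to 3 lay above every young mouse and aged mouse 4 below all of them, with a log2 fold change of 0.19 and a standard error of 0.12. Neither value moved by more than 0.01 without aged mouse 1. The ratio of Kdr to Flt1 per length was 1.31 ± 0.0761 in aged and 1.42 ± 0.157 in young mice (SD, n = 4 each).

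None of the 5 VEGF ligands tested changed by edgeR, with 1 at an unadjusted p below 0.05 and 1 called by each of DESeq2 and limma-voom. Vegfa, the main ligand of both receptors, was at 183, 239, 242 and 297 CPM in aged mice 1 to 4 and between 260 and 293 CPM in young mice. Aged mouse 1 was lowest and aged mouse 4 highest of all 8, and the log2 fold change was -0.21 with a standard error of 0.14 (adjusted p = 0.345 from edgeR). Vegfb had a log2 fold change of 0.11 (adjusted p = 0.709 from edgeR), Vegfc of -0.14 (adjusted p = 0.704) and Pgf of 0.67 (adjusted p = 0.368), the last at only 0.118 to 0.835 CPM and so near the floor. Figf, the symbol the tables use for VEGF-D, a ligand of the lymphatic receptor, was at 12.7 to 18.3 CPM in aged and 7.71 to 12.0 CPM in young mice. Its groups did not overlap, and its log2 fold change of 0.66 had an adjusted p of 0.0658 from edgeR, which ranged from 0.0102 to 0.172 over 17 alternative settings.

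None of the 3 other VEGF receptors and co-receptors changed by edgeR, DESeq2 or limma-voom, and none had an unadjusted p below 0.05. Nrp1, which presents VEGF-A to Kdr, was at 210 ± 17.9 CPM in aged and 229 ± 7.85 CPM in young mice (SD, n = 4 each), with a log2 fold change of -0.12 (adjusted p = 0.370 from edgeR). Nrp2 had a log2 fold change of -0.04 (adjusted p = 0.864 from edgeR), and Flt4, the receptor of lymphatic and some fenestrated endothelium, of -0.20 (adjusted p = 0.298 from edgeR). The ratio of Vegfa to Kdr per length was 2.51 ± 0.727 in aged and 3.02 ± 0.249 in young mice (SD, n = 4 each), with aged mouse 4 at 3.54 and aged mouse 1 at 1.84.

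Tek encodes the angiopoietin receptor Tie2, which keeps vessels quiescent, and lies on chromosome 4 of mm9 (94405980 to 94541667). It was at 54.7, 61.5, 68.3 and 56.0 CPM in aged mice 1 to 4 and at 71.3, 71.0, 63.0 and 72.8 CPM in young mice 1 to 4. Young mice 1, 2 and 4 lay above every aged mouse, and young mouse 3 lay within the aged range. The log2 fold change was -0.21 with a standard error of 0.09, and -0.17 without aged mouse 1. None of the 4 Tie pathway genes tested changed by edgeR, DESeq2 or limma-voom, and none had an unadjusted p below 0.05. Tie1, the partner receptor, was at 48.2 ± 6.77 CPM in aged and 46.3 ± 4.07 CPM in young mice (SD, n = 4 each), and Ptprb, the phosphatase that opposes Tek, at 228 ± 35 and 195 ± 8.30 CPM (SD, n = 4 each). Per length, Tek was 1.11 ± 0.111 times Tie1 in aged and 1.32 ± 0.0825 times Tie1 in young mice (SD, n = 4 each), and these ranges overlapped.

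The angiopoietins themselves differed most in aged mouse 1. Angpt1, the activating ligand, was at 13.0, 36.8, 27.6 and 21.5 CPM in aged mice 1 to 4 and at 19.5 to 26.0 CPM in young mice. Angpt2, the context-dependent antagonist that endothelial cells store and release, was at 22.7 CPM in aged mouse 1 and at 2.67 to 3.71 CPM in the other aged mice, beside 2.92 to 10.4 CPM in young mice. Its log2 fold change was 0.59 with all mice (adjusted p = 0.640 from edgeR) and -0.80 without aged mouse 1 (adjusted p = 0.286). Angpt4 was too low to be tested, at 1 to 17 counts per library.

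Pecam1, Emcn, Cdh5 and Plvap, which mark endothelium of all or most renal vessels, had overlapping ages and a wide spread among the aged mice. Pecam1 encodes the junctional adhesion molecule CD31 (chromosome 11, 106515531 to 106611942). It was at 131, 88.0, 69.7 and 59.1 CPM in aged mice 1 to 4 and at 88.1, 79.2, 82.9 and 89.6 CPM in young mice 1 to 4. Aged mouse 1 lay above and aged mice 3 and 4 below every young mouse. Emcn encodes the sialomucin endomucin of capillaries and veins (chromosome 3, 137004031 to 137095149). It had the same order among the aged mice, with 94.7, 67.2, 52.3 and 46.9 CPM in aged mice 1 to 4 and 60.8, 64.8, 57.1 and 58.6 CPM in young mice 1 to 4, and here aged mouse 2 also lay above every young mouse. The log2 fold change of Pecam1 was 0.03 with a standard error of 0.22, and -0.23 (SE 0.13) without aged mouse 1. That of Emcn was 0.11 (SE 0.20) and -0.12 (SE 0.12) without that mouse, so the sign of both depends on it.

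Cdh5 encodes VE-cadherin of the adherens junction (chromosome 8, 106625525 to 106668402). It was at 64.1, 62.2, 48.0 and 38.5 CPM in aged mice 1 to 4 and at 51.2, 56.1, 47.9 and 53.8 CPM in young mice 1 to 4, with a log2 fold change of 0.03 (SE 0.16) that became -0.08 without aged mouse 1. Plvap encodes the protein of fenestral and caveolar diaphragms, which peritubular capillaries carry and mature glomerular capillaries largely lack (chromosome 8, 74021653 to 74035668). It was at 193, 155, 151 and 103 CPM in aged mice 1 to 4 and at 143, 123, 123 and 147 CPM in young mice 1 to 4, with a log2 fold change of 0.17 (SE 0.17) and of 0.02 without aged mouse 1. In all 4 of these genes aged mouse 1 was highest and aged mouse 4 lowest of the 8 mice.

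With aged mouse 1 included, aged mice differed more from each other than young mice did, in most genes of the cortex. The spread without that mouse was not computed, so its part in these values is not known. The SD of log2 CPM was larger in aged than in young mice in 83.4% of the genes tested, with a median ratio of 2.03. Among the 10 endothelial genes it was larger in aged mice in 9, with a ratio of 6.08 in Pecam1, 5.64 in Emcn, 3.55 in Cdh5, 3.08 in Vwf, 2.80 in Plvap and 2.70 in Flt1. The ratio was 1.55 in Tek, 1.19 in Kdr and 1.02 in Esm1, and it was 0.828 in Ehd3. Esm1 and Ehd3, the genes whose ages did not overlap, thus had about the same spread at both ages. Aged mouse 1 was the highest of all 8 mice in 5 of the 10 genes, beside 28.4% of all genes tested.

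**Figure D3:**
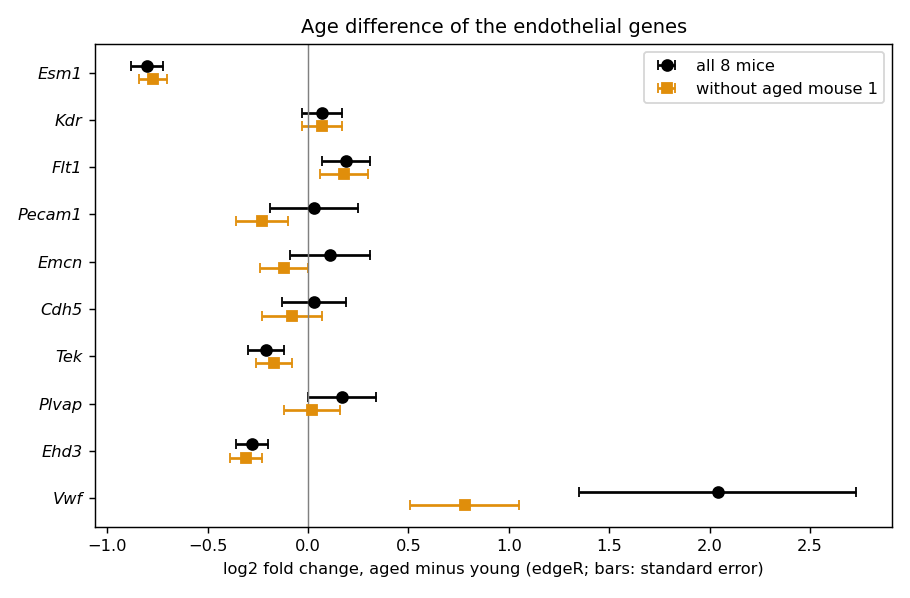
Log2 fold change of aged over young for the 10 endothelial genes (horizontal axis, edgeR, bars show the standard error), with all 8 mice (black circles) and without aged mouse 1 (orange squares). Esm1 lies at -0.80 and -0.77, and Vwf moves from 2.04 to 0.78.

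Ehd3 encodes an endocytic recycling protein that in kidney is enriched in glomerular endothelium (chromosome 17, 74154181 to 74181433). It was at 44.0, 41.0, 42.5 and 38.2 CPM in aged mice 1 to 4 and at 47.3, 50.1, 55.4 and 47.8 CPM in young mice 1 to 4. The highest aged mouse thus lay just below the lowest young mouse. Means were 41.4 ± 2.46 CPM in aged and 50.1 ± 3.73 CPM in young mice (SD, n = 4 each), and the log2 fold change was -0.28 (SE 0.08) with all mice and -0.31 without aged mouse 1. This difference was smaller than that of Esm1 and did not reach the fold threshold.

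Of 4 other genes of glomerular endothelium, none changed by edgeR or limma-voom, 1 had an unadjusted p below 0.05 and 1 was called by DESeq2. Their median log2 fold change was 0.45 with all mice and 0.12 without aged mouse 1, beside 0.03 over all genes tested. Plat, the tissue plasminogen activator, was at 189 CPM in aged mouse 1, at 34.8 to 64.5 CPM in the other aged mice and at 50.2 to 58.8 CPM in young mice. Tbx3, a transcription factor, was at 37.5 CPM in aged mouse 1 and at 7.03 to 15.2 CPM in the other aged mice, beside 5.24 to 7.88 CPM in young mice (log2 fold change 1.36, adjusted p = 0.129 from edgeR). Nostrin, a trafficking partner of endothelial nitric oxide synthase, and Gata5, a transcription factor at about 1 CPM, had log2 fold changes of 0.14 and 0.22 (adjusted p = 0.750 and 0.636 from edgeR). Podocyte genes, which share the glomerulus, gave a summed level of 177 to 383 CPM in aged and 246 to 302 CPM in young mice. None of 8 changed by edgeR or limma-voom, 1 had an unadjusted p below 0.05 and 1, Cdkn1c, a cell cycle inhibitor at 18.6 to 47.5 CPM in aged and 17.6 to 23.9 CPM in young mice, was called by DESeq2. The share of glomeruli in each piece of cortex is not known, and its part in the Ehd3 difference was not tested.

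Vwf encodes von Willebrand factor, the clotting glycoprotein of larger vessels (chromosome 6, 125496792 to 125636697), and 1 aged mouse set its mean. It was at 38.5, 6.31, 4.54 and 6.81 CPM in aged mice 1 to 4 and at 5.12, 2.70, 2.52 and 3.37 CPM in young mice 1 to 4. Aged mouse 1 stood far above the rest, while aged mouse 3 lay below young mouse 1, so the groups overlapped. Means were 14 ± 16.3 CPM in aged and 3.42 ± 1.19 CPM in young mice (SD, n = 4 each). The log2 fold change was 2.04 with a standard error of 0.69, and it was 0.78 with a standard error of 0.27 without aged mouse 1. Counts were 85 to 783 in the aged and 37 to 83 in the young libraries.

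Genes of vascular tone, adhesion and clotting were described with Vwf. Of the 12 tested, 1 changed by edgeR, 4 had an unadjusted p below 0.05, and 2 were called by DESeq2 and 1 by limma-voom. All 12 log2 fold changes lay above 0, with a median of 0.46 and of 0.27 without aged mouse 1, beside 0.03 and 0.02 over all genes tested. Edn1, which encodes the vasoconstrictor endothelin-1, rose from 1.17, 1.27, 1.22 and 0.945 CPM in young mice 1 to 4 to 5.45, 3.90, 3.79 and 2.29 CPM in aged mice 1 to 4. The lowest aged value was above the highest young value, and the log2 fold change was 1.74 (SE 0.28, adjusted p = 0.0267 from edgeR). Edn1 counts were low, at 16 to 24 in the young and 42 to 111 in the aged libraries. Which cells of the cortex made this RNA was not tested. Without aged mouse 1 the log2 fold change was 1.52 (adjusted p = 0.0195). Leaving out aged mouse 2, aged mouse 3 or any young mouse ended the call, with an adjusted p of up to 0.103.

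The other genes of this list did not pass by edgeR. Ednrb, an endothelin receptor, was at 152 CPM in aged mouse 1, at 25.3 to 55.0 CPM in the other aged mice and at 34.1 to 40.2 CPM in young mice (log2 fold change 0.92, adjusted p = 0.247 from edgeR). Thbd, the thrombin receptor thrombomodulin, overlapped between the ages at 33.3 to 62.5 and 37.3 to 49.0 CPM. Ece1, the enzyme that activates endothelins, was at 147 to 172 CPM in aged and 126 to 137 CPM in young mice, without overlap, but with a log2 fold change of only 0.23 (adjusted p = 0.121 from edgeR). Vcam1, a leukocyte adhesion molecule chosen after its values were seen, was at 17.7 to 22.1 CPM in aged and 10.9 to 15.5 CPM in young mice (log2 fold change 0.59, adjusted p = 0.0525 from edgeR, called by DESeq2). Sele and Selp, the selectins of activated endothelium, were too low to be tested, at 2 to 23 counts per library.

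**Figure D4:**
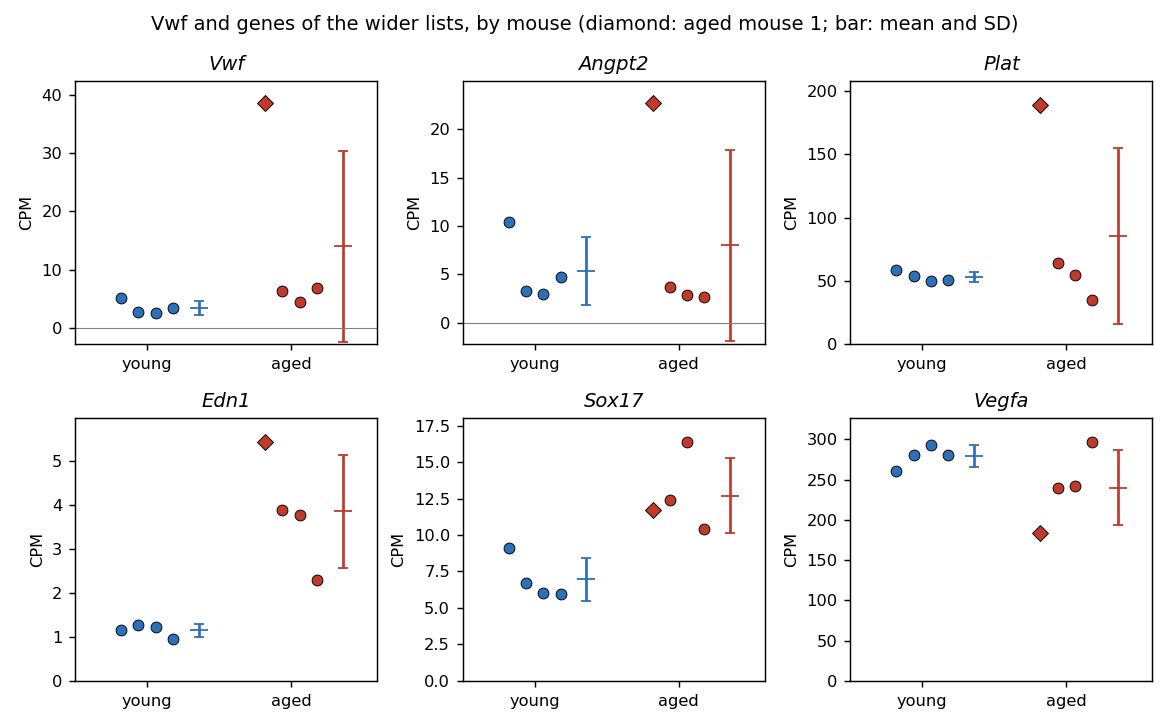
Level in CPM (vertical axes) of Vwf, Angpt2, Plat, Edn1, Sox17 and Vegfa in the 4 young (blue) and 4 aged (red) mice, with the group mean and SD beside the points and aged mouse 1 as a diamond. Aged mouse 1 is far above the other aged mice in Vwf, Angpt2 and Plat, where the SD bar is wide, while Edn1 and Sox17 lie above every young mouse in all 4 aged mice.

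Markers of other cells were read in the same mice beside these genes. In aged mouse 1 the summed level of 5 proximal tubule genes was the lowest of all mice, at 8460 CPM, and the young mice lay between 18300 and 22200 CPM. Lrp2 was at 3860 CPM there and at 8730 to 10600 CPM in the other aged mice. Aqp2, a collecting duct gene, was at 271 CPM in aged mouse 1, 91.0 to 138 CPM in the other aged mice and 79.9 to 132 CPM in young mice. Other collecting duct genes, Scnn1g (27.1 CPM), Atp6v1g3 (23.4 CPM) and Slc4a1 (28.2 CPM), were lowest of all mice in aged mouse 1. Slc12a1 of the thick limb was at 1410 CPM there, 664 to 1120 CPM in the other aged mice and 832 to 1540 CPM in young mice. Of the lymphatic genes, Ccl21a was at 0 in every mouse. Mmrn1 was at 10.4 CPM in aged mouse 1, 1.82 to 2.29 CPM in the other aged mice and 1.54 to 3.91 CPM in young mice. Lyve1 was at 4.71 CPM in aged mouse 1, 0.520 to 1.53 CPM in the other aged mice and 0.272 to 0.886 CPM in young mice. Prox1 was at 14.6 CPM, 6.81 to 8.61 CPM and 6.66 to 12.2 CPM in the same order. Flt4, also on this list, was at 27.0 CPM in aged mouse 1, within the young range of 24.6 to 30.1 CPM. None of the 4 tested changed by edgeR, DESeq2 or limma-voom, and 1 had an unadjusted p below 0.05. The part of tissue composition in the values of aged mouse 1 was not tested. Hbb-b1, Hba-a1 and Hba-a2 were listed at 0 in every mouse, so red cell RNA could be read only from Alas2, at 7.09 to 19.9 CPM in aged and 12.2 to 27.2 CPM in young mice (log2 fold change -0.26, adjusted p = 0.647 from edgeR).

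The genes outside the 10 came from lists of endothelial markers and regulators, ligands, endocan partners and synthesis enzymes, and markers of other cells of the cortex. These lists held 153 genes in the tables, of which 145 were tested and some belong to more than 1 list. By edgeR 3 of the 145 changed, Edn1 and Sox17 higher and the leukocyte gene Csf1r lower, beside 2.06% of all genes tested. Of the 145, 37 had an unadjusted p below 0.05, and DESeq2 called 15 and limma-voom 11. Over all 13944 genes tested these counts were 3557, 873 and 483. Of the 22 genes shared by most endothelium none changed by edgeR, DESeq2 or limma-voom, and 3 had an unadjusted p below 0.05. Their median log2 fold change was 0.18, and 0.08 without aged mouse 1, and their summed level was 825 to 1290 CPM in aged and 868 to 985 CPM in young mice. Gpr116, an adhesion receptor, was at 293 CPM in aged mouse 1 and 136 to 170 CPM in the other aged mice. Eng, a co-receptor for TGF-beta family ligands, was at 158 ± 34.5 CPM in aged and 133 ± 7.36 CPM in young mice, and Egfl7, a secreted vascular factor, at 46.9 ± 9.33 and 45.5 ± 1.69 CPM (SD, n = 4 each).

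Sox17, a transcription factor of arterial endothelium, rose with age. It was at 11.7, 12.4, 16.4 and 10.4 CPM in aged mice 1 to 4 and at 9.12, 6.72, 6.05 and 5.97 CPM in young mice 1 to 4, and the lowest aged value was above the highest young one. The log2 fold change was 0.87 (SE 0.19, adjusted p = 0.0495 from edgeR), and 0.90 without aged mouse 1 (adjusted p = 0.0401). The adjusted p was close to the threshold and ranged up to 0.146 over 17 alternatives, and the call held in 8 of them. Of 21 endothelial transcription factors it was the only one that changed by edgeR, with 5 at an unadjusted p below 0.05. Epas1, the hypoxia factor HIF-2alpha, was at 373 to 510 CPM in aged and 350 to 371 CPM in young mice (log2 fold change 0.31, adjusted p = 0.130 from edgeR). Nr2f2, a factor of venous identity, was at 180 ± 14.8 and 180 ± 12.0 CPM, and Ets2 at 69.0 ± 12.4 and 73.8 ± 2.15 CPM (SD, n = 4 each). Foxo1, a factor of endothelial quiescence, was at 200 CPM in aged mouse 1 and 112 to 121 CPM in the other aged mice, beside 101 to 136 CPM in young mice.

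Of 9 arterial genes Sox17 alone changed by edgeR, and 4 had an unadjusted p below 0.05. Efnb2, an arterial ephrin, had a log2 fold change of 0.31 (adjusted p = 0.150 from edgeR), Sema3g of 0.30 (adjusted p = 0.302) and Fbln5, an elastic fibre protein, of 0.26 (adjusted p = 0.512). Of 5 venous and capillary genes none changed by edgeR, DESeq2 or limma-voom and 1 had an unadjusted p below 0.05. Ephb4, the venous ephrin receptor, had a log2 fold change of 0.11 (adjusted p = 0.422 from edgeR), Igfbp3 of 0.23 (adjusted p = 0.588) and Npr3 of -0.15 (adjusted p = 0.687).

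Esm1 is also known as a gene of tip cells, the leading cells of sprouting vessels, so 6 further tip cell genes were read beside it. None changed by edgeR, 2 had an unadjusted p below 0.05, and DESeq2 and limma-voom called 1 each. Apln, which encodes the peptide apelin, was at 5.45, 8.52, 4.06 and 6.05 CPM in aged mice 1 to 4 and at 11.0, 9.20, 12.9 and 14.2 CPM in young mice 1 to 4. Every aged mouse lay below every young mouse, with a log2 fold change of -0.98 (SE 0.23) and an adjusted p of 0.0571 from edgeR that ranged from 0.00251 to 0.155 over 17 alternatives. Dll4, the Notch ligand of tip and arterial cells, did not overlap either, at 10.9 to 15.9 CPM in aged and 16.0 to 19.7 CPM in young mice (log2 fold change -0.38, adjusted p = 0.130 from edgeR). Pdgfb, which recruits pericytes, was at 27.6 ± 2.68 and 28.2 ± 0.553 CPM (SD, n = 4 each), and Unc5b, a netrin receptor, had a log2 fold change of 0.15 (adjusted p = 0.629 from edgeR). The 6 genes had a median log2 fold change of -0.04, and of -0.18 without aged mouse 1.

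Endocan binds the integrin LFA-1 through its protein and the growth factor HGF through its chain. None of the 4 genes of these partners changed by edgeR, DESeq2 or limma-voom, and 2 had an unadjusted p below 0.05. Hgf was at 6.38 ± 2.47 CPM in aged and 9.80 ± 2.28 CPM in young mice (log2 fold change -0.62, adjusted p = 0.190 from edgeR), and its receptor gene Met at 284 ± 93.1 and 419 ± 62.7 CPM (SD, n = 4 each, log2 fold change -0.56, adjusted p = 0.156). Itgal and Itgb2, the LFA-1 subunits made by leukocytes, had log2 fold changes of 0.51 and 0.24 (adjusted p = 0.267 and 0.593 from edgeR). Among 6 leukocyte genes 1 changed. Csf1r, the macrophage growth factor receptor, fell from 75.3, 47.7, 52.6 and 72.6 CPM in young mice 1 to 4 to 24.7, 33.6, 23.9 and 41.7 CPM in aged mice 1 to 4 (log2 fold change -1.0, SE 0.22, adjusted p = 0.0472 from edgeR). Its call ended without aged mouse 2, aged mouse 3 or any young mouse, with an adjusted p of up to 0.132, and it held without aged mouse 1 (adjusted p = 0.0489). Ptprc, Cd68 and Emr1, which mark leukocytes and macrophages, had log2 fold changes of 0.29, 0.13 and 0.71 (adjusted p = 0.497, 0.747 and 0.245 from edgeR).

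The dermatan sulfate chain of endocan is built by enzymes of chondroitin and dermatan sulfate synthesis. Which cells of the cortex made the RNA of these enzymes was not tested. Of 19 such genes none changed by edgeR, 5 had an unadjusted p below 0.05, and DESeq2 called 4 and limma-voom 2. Chst11, a chondroitin sulfotransferase, was at 26.3, 45.4, 65.6 and 97.6 CPM in aged mice 1 to 4 and at 141, 168, 131 and 118 CPM in young mice 1 to 4, with no overlap (log2 fold change -1.25, SE 0.34, adjusted p = 0.0752 from edgeR). Chst7, another sulfotransferase, chosen after its values were seen, was at 3.24 to 16.7 CPM in aged and 24.1 to 36.5 CPM in young mice (log2 fold change -1.97, adjusted p = 0.0518 from edgeR). Xylt1, which starts the chain, had a log2 fold change of -0.65 (adjusted p = 0.267 from edgeR), Csgalnact2 of 0.27 (adjusted p = 0.170) and B3gat3 of -0.03 (adjusted p = 0.873). The median of the 19 was -0.03.

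Cells around the vessels were read last. Of 8 genes of mesangium, pericytes and smooth muscle none changed by edgeR or DESeq2, 4 had an unadjusted p below 0.05 and limma-voom called 1, Notch3. Pdgfrb, the pericyte receptor for Pdgfb, was at 80.3 ± 20.2 CPM in aged and 90.0 ± 9.64 CPM in young mice (SD, n = 4 each). Rgs5 had a log2 fold change of 0.69 (adjusted p = 0.165 from edgeR), Acta2 of -0.06 (adjusted p = 0.897) and Tagln, without overlap, of -0.58 (adjusted p = 0.190). Ren1 was listed at 0 in every mouse. Whether a 0 in every mouse, as in Ren1 and Ccl21a, came from absent RNA or from the counting was not tested. Of the tubule genes, none of 5 from the proximal tubule, 4 from the thick limb and distal tubule and 4 from the collecting duct changed by edgeR, with 1, 3 and 0 at an unadjusted p below 0.05. DESeq2 and limma-voom each called 1, 1 and 0 of them. Their median log2 fold changes were -0.30, -0.31 and -0.05, and -0.07, -0.41 and 0.05 without aged mouse 1.

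**Figure D5:**
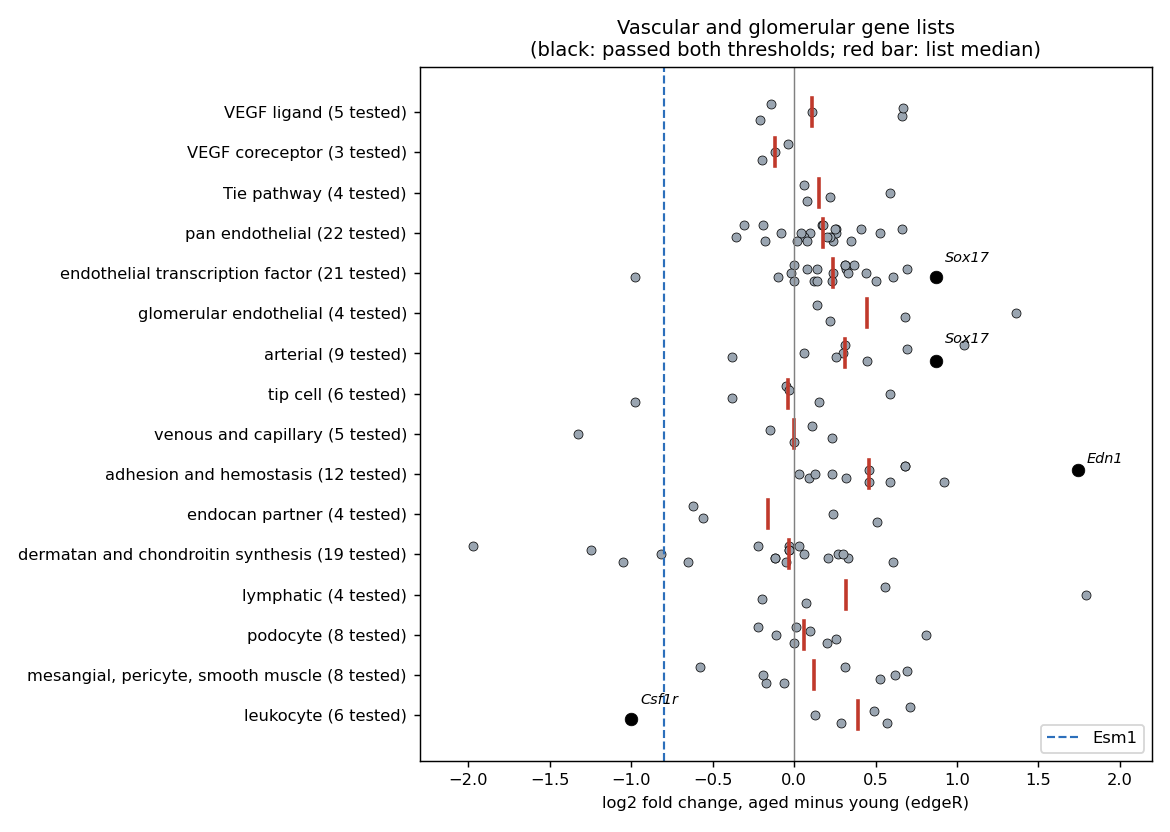
Log2 fold change of aged over young from edgeR (horizontal axis) of each tested gene in 16 gene lists (rows, 1 point per gene, red bar at the list median, vertical offsets only to separate points), with genes that passed both thresholds in black and Esm1 as a dashed line at -0.80. Sox17, in 2 lists, and Edn1 lie to the right and Csf1r to the left, and all other points are grey.

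The genes whose pattern over the 8 mice was most like that of Esm1 were on none of the lists above. Likeness was measured as the root mean square difference of log2 CPM after each gene was centred on its own mean, over the 8 libraries, which share the age groups and the scaling. The nearest of 13943 genes was Hes6, a repressor of the HES family, at 0.0649. It was at 27.8, 27.4, 32.9 and 29.5 CPM in aged mice 1 to 4 and at 44.1, 51.7, 51.0 and 48.5 CPM in young mice 1 to 4. Azin1, an antizyme inhibitor of polyamine metabolism (0.106), Tubb2c (0.111) and Tuba1c (0.12), both tubulins, and Hoxa9, a homeobox factor (0.126), came next. Copies of tubulin genes elsewhere in the genome were not searched for, so their counts are uncertain. Of the endothelial genes Ehd3 was nearest, at 0.283 and rank 869, then Tek at 0.308 and rank 1368, and Vwf was farthest at 1.47 and rank 13840.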

How the data were processed

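RNA was extracted with TRIzol from the kidney cortex of 4 aged and 4 young mice, and stranded, rRNA-depleted libraries were read from both ends. The authors used TopHat2 for alignment to mm9 and HTSeq-count, with strand, for counting over RefSeq genes, and the raw counts were deposited as 1 table per library. CASAVA 1.8.2 is named in the submitters' processing notes, and other versions are not given in the sources used here. Each table ends in 5 lines without a gene name (59.4% to 64.5% of its sum), which were dropped. A further table that joins the libraries was set aside. Groups and ages came from the sample labels.

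Counts were analysed in R 4.3.3 with edgeR 4.0.16 (TMM, filterByExpr with a minimum count of 10, quasi-likelihood test, no covariate, Benjamini-Hochberg adjustment over 13944 genes, changed at adjusted p below 0.05 and fold above 1.5). FPKM used longest coding transcripts of the GENCODE annotation of mm9, and coordinates came from it. Promoters are on GRCm38.p6, and the builds were not mixed. BLAST 2.17.0 against mm9 found no copy of a member elsewhere at 98% identity or more over 100 nt. No 2 libraries were duplicates (smallest chi-square per gene 8.98).

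The members and gene lists were chosen with earlier results of these data known. Named beside the members were every listed gene that changed, up to 4 genes per list with the highest mean FPKM, the VEGF and Tie genes in full and the 5 genes nearest to Esm1. Alternatives were other scalings, DESeq2 1.42.0, limma 3.58.1 with voom and quality weights, robust fitting, other filters, the replicate number as a block, each library left out and no fold threshold. On simulated counts of 13845 genes for aged against young, edgeR recovered 63% of genes changed 2-fold and 92% of those changed 4-fold, and 3.73% of its calls were false. The simulation gave both ages the same spread and held no outlying mouse. In the data aged mice varied more, so these rates may not carry over.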

Additional observations from a re-analysis of the deposited data

Results flagged for a closer look

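Over the genes named here, each age group of 4 mice was searched for a mouse whose gap to its nearest neighbour divided by the group's range was above Dixon's critical value. Of 180 groups 10 were above it, and chance gives about 9. Of these, 6 concerned aged mouse 1. Among the 10 endothelial genes there was 1, Vwf, with aged mouse 1 highest at 0.933 of the range.

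Aged mouse 1 was also highest of the aged mice in Angpt2 (0.948), Mmrn1 (0.945) and Foxo1 (0.907) and lowest in Cubn (0.912) and Calb1 (0.865), the last 2 expressed by tubules. Aged mouse 4 was highest in Itgb2 (0.913) and lowest in Csgalnact2 (0.893). Among the young mice, mouse 1 was lowest in Vegfb (0.950) and highest in Cd68 (0.897). What set these mice apart was not tested.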

How the results depend on the processing

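As a description, since this contrast chose Esm1 and its alternatives use the same counts, the log2 fold change of Esm1 lay between -0.83 and -0.69 over the 17 alternatives. DESeq2 gave no adjusted p for Vwf. The sign held in all 17 for Kdr, Flt1, Tek, Plvap, Ehd3 and Vwf, in 15 for Emcn, 13 for Pecam1 and 12 for Cdh5. The count of changed genes was 488 with library size only, 873 with DESeq2, 483 with limma-voom and 130 with the replicate block, beside 287, and 8 to 733 with 1 mouse left out. Library size only shifted the all-gene median (log2 fold change) from 0.03 to 0.14 and the share of higher calls from 56.8% to 75.4%. With 1 mouse left out that share ran from 44.9% without aged mouse 4 (329 of 733 calls) to 71.4% without young mouse 3 (10 of only 14 calls). Of the other listed genes 7, 15 and 11 changed with library size only, DESeq2 and limma-voom, beside 3, and 0 to 10 with 1 mouse left out. The cause of these shifts was not tested. In their deviations from the group means, same-numbered mice correlated at 0.206, 0.0380, 0.199 and -0.0302, and differently numbered mice at -0.3 to 0.165. These values do not settle whether replicate numbers pair the mice. The replicate block gave a median log2 fold change of 0.03 for the 10 and 2 other listed genes changed. With 4 mice per group, depth of 37 to 83 counts limits Vwf in young mice.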

Other observations

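Among genes outside the naming rule, chosen after their values were seen, Aplnr, the apelin receptor, was at 0.688 to 5.59 CPM in aged and 5.18 to 7.68 CPM in young mice (log2 fold change -1.33, adjusted p = 0.145 from edgeR), beside the lower values of its ligand gene Apln. Bcl6b, an endothelial repressor, was at 3.05 to 6.57 CPM in aged and 8.56 to 10.7 CPM in young mice (log2 fold change -0.98, adjusted p = 0.0601 from edgeR).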
